A study of Mus musculus with 58 samples.

Results

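Heparan sulfate is built by a short series of Golgi enzymes, and the genes described here are 10 of them, chosen by symbol: Ext1, Ext2, Extl2, Extl3, Ndst1, Ndst2, Glce, Hs2st1, Hs6st1 and Hs3st1. All 10 are among the 24940 genes of the age series, where 9 passed the filter on low counts. Hs3st1 did not pass, and it is not among the 10277 genes of the wild-type antisense table or the 10589 of the SgshKO antisense table, which hold the other 9. The question set by the design is whether transcripts of chain synthesis differ where chain degradation is blocked.

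PolyA RNA was sequenced from microglia sorted out of the forebrain of C57BL/6 mice, in 58 libraries. The sort took cells positive for CD11b and CX3CR1 with low CD45. SgshKO mice lack Sgsh, which encodes a lysosomal sulfatase of heparan sulfate, and its loss causes Sanfilippo syndrome type A; the labels give neither the allele nor the sex of the animals. Untreated wild-type (WT) mice gave 3 libraries at 3 weeks of age, 2 at 4 months and 4 at 8 months, and untreated SgshKO mice gave 4, 2 and 7. Separate WT mice received 1 injection into the cerebral ventricles of PBS, of a control antisense oligonucleotide (ASO) labelled ntc, or of an ASO against Mitf, Tfeb or Tfe3, with 4 libraries in each group. Separate SgshKO mice received ntc (8 libraries) or the Mitf and Tfe3 ASOs together (8 libraries), so that all animals of this set carry the knockout. Cells of treated mice were collected 14 days after the injection, and the labels do not state the age of these mice. No label says that libraries of a group came from separate animals, so the p-values measure the spread between these libraries, which may be technical.

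Heparan sulfate is a sulfated polysaccharide attached to core proteins such as syndecans and glypicans. Its chain starts on a linker of sugars, where EXTL3 adds the first glucosamine unit, and the EXT1 and EXT2 proteins together extend it. NDST enzymes then replace acetyl groups by sulfate, GLCE converts glucuronic to iduronic acid, and further sulfotransferases decorate the chain, which sets which growth factors and proteases bind it. Chains that are taken up are broken down in the lysosome by a fixed order of enzymes, of which the Sgsh product is 1. MITF, TFEB and TFE3 are related transcription factors of lysosomal genes that bind DNA sites with CACGTG at their core, and they are the ASO targets of this study.

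Promoter sequence is shown for members that RefSeq covers, because the ASOs lower factors that bind such sites. The table matched 7 of the 10 members with 8 windows of 250 bases before a start, on GRCm38.p6, and Ext1, Extl3 and Ndst1 had no entry. CACGTG, which reads the same on both strands, was searched in each window, and it occurs in 6.02% of all 32851 windows of this length. It was found before the start of Ext2 and before the second listed start of Extl2. Ext2 and Extl2 are shown with these letters in capitals, beside the windows of Ndst2 and Hs6st1, which hold none. In the main test on counts, described below, Ndst2 was lower in SgshKO at 4 and 8 months and Hs6st1 at 4 months only.
Ext2, chr2:93822569-93822818, minus strand: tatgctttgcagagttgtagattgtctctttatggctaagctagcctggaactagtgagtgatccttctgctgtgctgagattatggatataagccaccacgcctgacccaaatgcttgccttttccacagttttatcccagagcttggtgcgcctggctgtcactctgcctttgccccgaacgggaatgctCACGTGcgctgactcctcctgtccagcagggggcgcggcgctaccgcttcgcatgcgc
Extl2, 30 bases around the match, chr3:116008168-116008197, plus strand: cagctggccgatCACGTGaatgattaaaag
Ndst2, chr14:20734563-20734812, minus strand: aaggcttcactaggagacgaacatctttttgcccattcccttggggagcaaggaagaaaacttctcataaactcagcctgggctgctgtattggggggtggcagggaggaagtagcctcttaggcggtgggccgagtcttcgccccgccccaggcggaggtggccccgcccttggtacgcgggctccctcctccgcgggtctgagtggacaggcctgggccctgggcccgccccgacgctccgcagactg
Hs6st1, chr1:36068150-36068399, plus strand: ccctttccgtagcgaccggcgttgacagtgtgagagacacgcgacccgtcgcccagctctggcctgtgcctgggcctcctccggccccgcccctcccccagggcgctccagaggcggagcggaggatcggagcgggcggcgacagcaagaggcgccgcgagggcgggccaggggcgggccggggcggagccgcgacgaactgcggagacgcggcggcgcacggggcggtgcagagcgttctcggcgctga
The match starts at position -58 from the start of Ext2 and at -117 from that of Extl2. In both, a T precedes the match on the printed strand, giving TCACGTG, which overlaps CACGTG and occurs in 3.13% of all windows. The related letters CATGTG, searched on both strands and present in 12.3% of windows, were in none of the 8. Windows of Glce, Hs2st1 and Hs3st1 also held no CACGTG. A match describes these letters only.

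Total counts ran from 8191508 to 27106584 in the age series, from 14372015 to 30378870 in the WT ASO libraries and from 12517838 to 30431437 in the SgshKO ASO libraries. Every library of the age series had at least 140 counts for each of the 9 members tested. The summed level of 8 microglia markers was lower in SgshKO, at 28546 to 31667 CPM (counts scaled to a fixed library total) at 8 months against 37719 to 45265 in WT. At 4 months it was 26963 and 30339 CPM against 41161 and 45475. Of the 8 markers, 6 were called lower and 1 higher at 8 months, and 5 lower and 0 higher at 4 months. The 10 neutrophil and monocyte markers summed to 414 to 5479 CPM in SgshKO at 8 months against 7.78 to 13.4 in WT, and to 2813 and 13908 against 9.90 and 12.5 at 4 months, with Ly6g and Retnlg at 0 in WT at both ages. At 3 weeks these markers overlapped (6.56 to 33.7 against 5.75 to 14.7 CPM). Other sums were apart at 3 weeks, with microglia markers at 42773 to 45885 CPM in SgshKO against 49055 to 50362 in WT. Border macrophage markers summed there to 83.0 to 109 against 55.1 to 76.0. Astrocyte markers summed to 191 to 266 against 153 to 165, and endothelial and mural markers to 52.5 to 58.8 against 64.4 to 81.4. Oligodendrocyte and neuron sums overlapped at that age. At 4 months border macrophage markers summed to 71.2 and 124 CPM against 9.46 and 10.5 in WT. Endothelial and mural markers summed there to 36.5 and 39.1 against 58.6 and 75.4, and neuron markers to 8.17 and 9.78 against 2.48 and 3.01. Astrocyte sums overlapped at 4 months. Border macrophage markers summed to 61.3 to 108 CPM at 8 months against 15.9 to 32.1 in WT, astrocyte markers to 178 to 298 against 288 to 403, and endothelial and mural markers to 38.1 to 56.6 against 83.5 to 87.6. The astrocyte sum follows Slc1a3, which was lower (-0.66), while 4 of the 7 markers were called higher (median 2.05, log2). Of 5 endothelial and mural markers tested, 2 were higher and 3 lower. Oligodendrocyte markers ran from 146 to 161 CPM against 118 to 147 and neuron markers from 3.68 to 5.59 against 2.18 to 4.99. Their part in the results on chain enzymes was not tested. Values without the libraries highest in neutrophil markers are given below, though the SgshKO libraries kept there still exceeded WT in these markers. In bulk RNA, fewer cells of a type and less RNA per cell cannot be told apart. Sgsh transcript was still present in SgshKO (14.9 to 34.7 CPM over the 3 ages) and passed the test only at 8 months (log2 fold change -0.74 ± 0.16, SE, adjusted p = 5.83e-04), so it does not check the genotype labels.

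Microglia carried transcripts of 9 of the 10 members above the filter on low counts, at unequal levels. Of 11 other chain enzymes, described further below, 3 passed that filter. Levels between genes are compared in TPM, a scale that divides by transcript length and by the library's sum. In WT at 8 months Extl3 led with 157 ± 4.44 TPM (SD, n = 4), above 97.1% of the 16915 genes with a level over 0. Hs6st1 followed at 94.9 ± 12.8 TPM, and its libraries lay below those of Extl3. Ndst2 (52.3 ± 2.82 TPM) and Ext2 (49.3 ± 3.64) came next and overlapped. Ndst1 (18.3 ± 2.19 TPM), Ext1 (15.1 ± 2.89), Hs2st1 (12.9 ± 2.01) and Extl2 (10.4 ± 1.48) formed a lower group in which each overlapped with its neighbour. Glce had 7.08 ± 1.39 TPM, below the libraries of Extl2. Hs3st1, whose product adds the sulfate at the third carbon that antithrombin recognises, was close to 0 at 0.105 ± 0.0955 TPM. At 8 months each WT library had 0 to 5 counts and each SgshKO library 0 to 13, and at 4 months they summed to 10 in WT and 3 in SgshKO, or 2.95 times as many per library size (0.759 to 16.7 by counting error alone). That interval covers equal levels. At 3 weeks the order in WT differed at the top, with Hs6st1 (123 ± 5.51 TPM, SD, n = 3) and Extl3 (121 ± 11.4) overlapping.

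The first comparison asks whether loss of Sgsh goes with a different level of chain enzymes at each age. At 3 weeks none of the 9 members tested was called at an adjusted p threshold of 0.05 by edgeR, where 9.03% of all genes were called; 1 had an unadjusted p under 0.05 and DESeq2 called 1, Extl3 in both cases. At 4 months 4 members were lower in SgshKO (Ext1, Extl3, Ndst2 and Hs6st1) and 0 were higher, against 19.5% of all genes called (9.26% lower and 10.3% higher, of all genes). At 8 months 3 were lower (Ext1, Extl3 and Ndst2) and 1 was higher (Ndst1), against 40.5% of all genes called, 18.9% lower and 21.6% higher. The count of 4 in 9 at 8 months is thus near the share over all genes. The genotypes were fully apart for 2, 5 and 2 members at the 3 ages, beside 22.5%, 58.1% and 25.2% of all genes. The median log2 fold change of the members was -0.07, -0.15 and -0.13, and that of all genes -0.02, 0.02 and 0.02. The plot of fold changes by age shows the 9 members with their intervals.

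**Figure D1:**
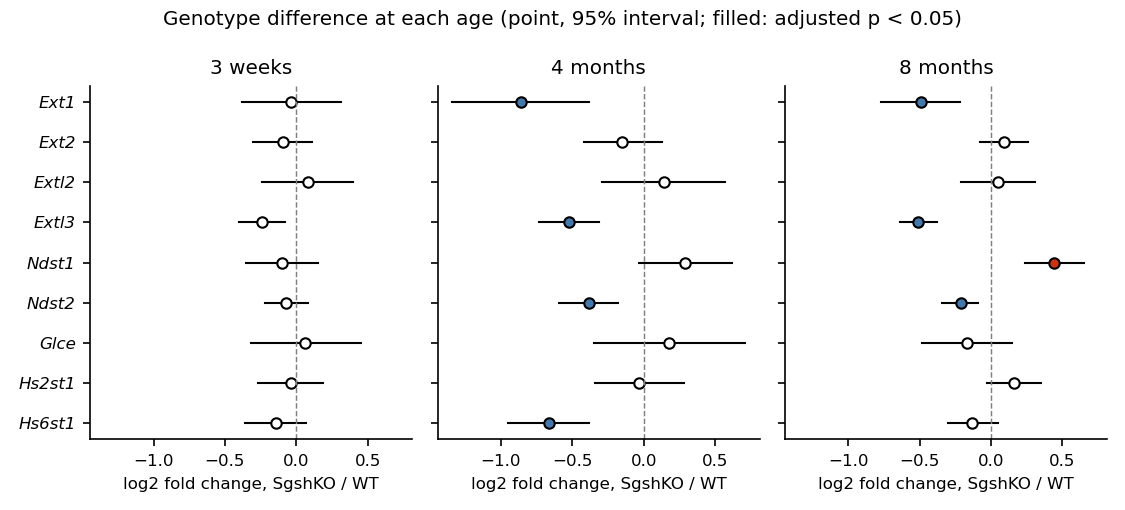
Log2 fold change of SgshKO over WT (x axis) for the 9 members tested (y axis) at 3 weeks, 4 months and 8 months. Points are edgeR estimates, bars their 95% interval, and filled points passed an adjusted p of 0.05, blue where lower and red where higher in SgshKO: 0 at 3 weeks, 4 at 4 months and 4 at 8 months, with Ndst1 the 1 called higher.

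Extl3 and Ext1, which start and extend the chain, were lower in SgshKO at 4 and 8 months, while Ext2 and Extl2 showed no call. Extl3 lies on chromosome 14, from 65052059 to 65098106 on the minus strand; this and the other gene positions are those of the transcript in the deposited count table (mm10, per the submitters' processing notes), and GENCODE gene bounds can differ. At 8 months its level was 591, 603, 618 and 568 CPM in WT and 365 to 448 (median 422) in the 7 SgshKO libraries. All SgshKO libraries lay below all WT libraries, and the log2 fold change was -0.51 ± 0.06 (SE, adjusted p = 4.13e-07). At 4 months WT had 494 and 486 CPM and SgshKO 356 and 328, again apart (-0.52 ± 0.10, SE, adjusted p = 6.72e-04). At 3 weeks the libraries were also apart, with 429, 461 and 505 CPM in WT and 417, 383, 374 and 402 in SgshKO. That difference missed the threshold in edgeR (-0.24 ± 0.08, SE, adjusted p = 0.0536), and passed it with RLE factors (adjusted p = 0.0399), with DESeq2 (0.00882), with a stricter count filter (0.0416), in TPM (0.0217 to 0.0282), without WT replicate 1 (0.0400) and without SgshKO replicate 1 (0.0466).

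Ext1 (chromosome 15, 53068261 to 53346183, minus strand) encodes 1 subunit of the elongating complex. Its level at 8 months was 35.7, 41.3, 31.7 and 25.0 CPM in WT and 16.9 to 31.3 (median 23.4) in SgshKO. The groups overlapped, since the lowest WT library lay within the SgshKO range, and the difference passed (-0.49 ± 0.14, SE, adjusted p = 0.00485). At 4 months WT had 28.6 and 27.4 CPM and SgshKO 17.1 and 13.8, apart by -0.86 ± 0.23 (SE, adjusted p = 0.00964). With 2 libraries a group that call depended on single ones: leaving out WT replicate 1 (adjusted p = 0.0610), WT replicate 2 (0.0532) or SgshKO replicate 2 (0.102) ended it, where the lone library left is assumed to vary like those of the other groups. At 3 weeks Ext1 had 30.2 to 36.8 CPM in WT and 28.9 to 37.2 in SgshKO, with a log2 fold change of -0.04 (95% interval -0.38 to 0.31).

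Ext2 (chromosome 2, 93695631 to 93822568, minus strand), the other subunit of the elongating complex, was not called at any age. It had 83.9 to 98.6 CPM in WT at 8 months and 81.7 to 107 in SgshKO, so that both groups overlapped over most of their range. The log2 fold change was 0.09 there, with an interval of -0.08 to 0.26. Extl2 (chromosome 3, 116007449 to 116029016, plus strand) adds a terminal glucosamine that stops elongation. Its level at 8 months was between 15.5 and 21.8 CPM in WT and between 16.1 and 22.2 in SgshKO, with a log2 fold change of 0.05 (interval -0.21 to 0.31). In TPM these uncalled values were -0.06 for Ext2 and -0.09 for Extl2, on a scale where the median of all genes was -0.11. The ratio of Extl3 to Ext1 in TPM was 10.7 ± 2.04 in WT (SD, n = 4) and 10.6 ± 2.42 in SgshKO (n = 7) at 8 months, with overlapping ranges.

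**Figure D2:**
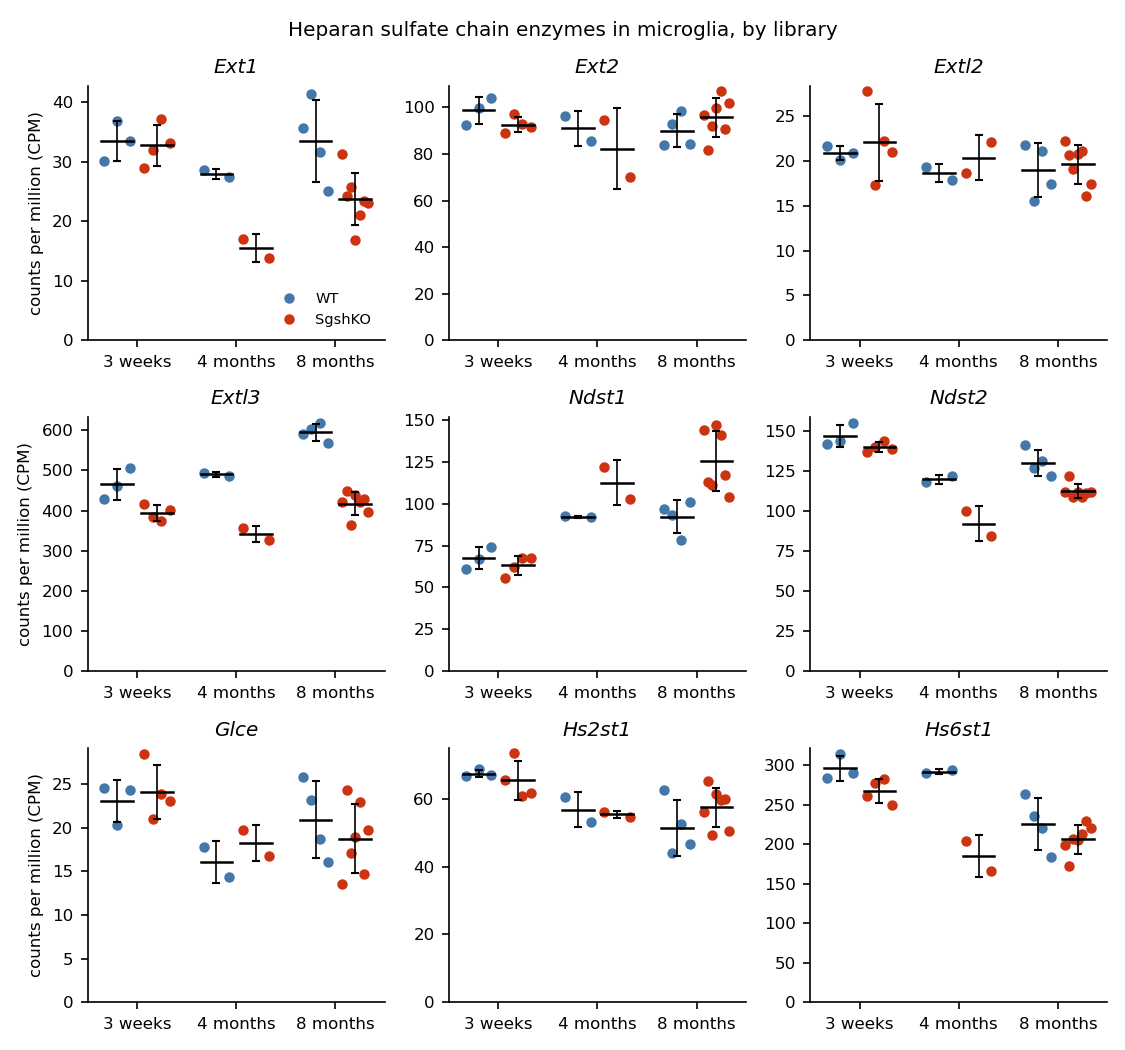
Level in CPM (y axis, from 0) of the 9 members tested in each library of the age series (points), by age (x axis) and genotype (blue WT, red SgshKO), with the mean and SD as bars. For Extl3 all SgshKO libraries lie below the WT libraries at each age, and for Ndst1 they lie above them at 4 and 8 months.

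The N-sulfotransferase genes moved in opposite directions at 8 months. Both products remove acetyl groups from glucosamine and put sulfate in their place, the step on which later modifications depend. Ndst1 (chromosome 18, 60684494 to 60748665, minus strand) had 96.7, 93.0, 78.3 and 101 CPM in WT and 104 to 147 (median 117) in SgshKO at 8 months. All 7 SgshKO libraries were above the WT libraries, and the log2 fold change was 0.44 ± 0.10 (SE, adjusted p = 8.95e-04). At 4 months the libraries were 92.4 and 91.7 CPM in WT and 122 and 103 in SgshKO, apart but not called (0.29 ± 0.16, SE, adjusted p = 0.216). At 3 weeks they overlapped at 61.2 to 74.3 and 55.9 to 67.8 CPM (-0.10, interval -0.35 to 0.15).

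Ndst2 (chromosome 14, 20723730 to 20734562, minus strand) had 141, 127, 131 and 122 CPM in WT and 109 to 122 (median 112) in SgshKO at 8 months. SgshKO replicate 2, the highest of its group, reached the lowest WT library, and the other 6 lay below (-0.21 ± 0.06, SE, adjusted p = 0.00602). At 4 months WT had 118 and 122 CPM and SgshKO 100 and 84.3, a difference of -0.38 ± 0.10 on the log2 scale (SE, adjusted p = 0.00632). It missed the threshold when WT replicate 2 (adjusted p = 0.0790) or SgshKO replicate 2 (0.0865) was left out, and in a fit of the 4-month groups alone (0.0658). At 3 weeks the groups overlapped at 142 to 155 and 137 to 144 CPM (-0.07, interval -0.22 to 0.08).

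Because both genes encode the same kind of enzyme, their ratio within a library was also described, in TPM. Ndst1 over Ndst2 was 0.226 ± 0.0124 in WT (SD, n = 3) and 0.223 ± 0.0168 in SgshKO (n = 4) at 3 weeks. At 4 months it was 0.372 and 0.384 in WT and 0.607 and 0.610 in SgshKO. At 8 months WT ranged from 0.293 to 0.413 and SgshKO from 0.461 to 0.654. SgshKO libraries thus lay above WT libraries at 4 and 8 months and overlapped with them at 3 weeks. Ndst2 had the higher level of the pair in every library of the age series.

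**Figure D3:**
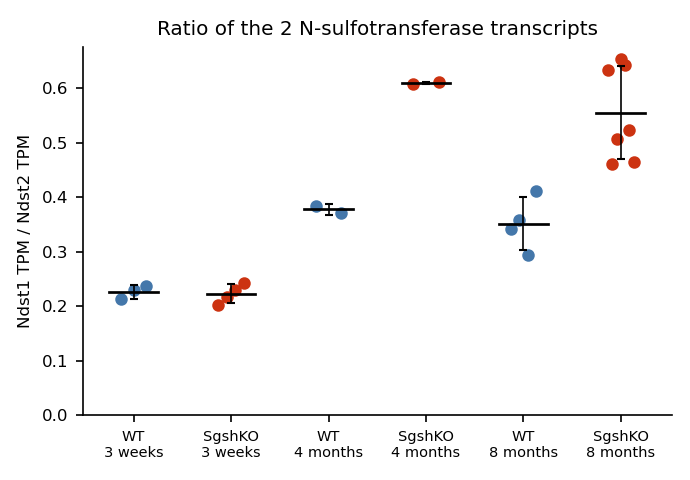
Ratio of Ndst1 TPM to Ndst2 TPM (y axis, from 0) in each library of the age series (points), by genotype and age (x axis), with mean and SD as bars. Mean ratios are 0.226 and 0.223 for WT and SgshKO at 3 weeks, 0.378 and 0.609 at 4 months, and 0.351 and 0.555 at 8 months.

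Among the 3 tested members that act after N-sulfation (Glce, Hs2st1 and Hs6st1), Hs6st1 was lower in SgshKO at 4 months and none was called at 8 months. Hs6st1 (chromosome 1, 36068400 to 36106446, plus strand), whose product sulfates glucosamine at the sixth carbon, had 290 and 294 CPM in WT and 204 and 166 in SgshKO at 4 months. The groups were apart by -0.66 ± 0.14 (SE, adjusted p = 0.00114). At 8 months WT had 263, 236, 220 and 184 CPM and SgshKO 172 to 230 (median 207), overlapping over most of the range (-0.13 ± 0.09, SE, adjusted p = 0.253). It passed there in TPM (-0.26, adjusted p of 0.00862 to 0.0132) and without WT replicate 4, the lowest WT library (-0.24, adjusted p = 0.0199). An antisense gene, Gm37335, overlaps its exons, and it is not stated whether the counting used strand. Hs2st1 (chromosome 3, 144429701 to 144570216, minus strand) sulfates the uronic acid, and had 44.0 to 62.4 CPM in WT at 8 months and 49.4 to 65.1 in SgshKO. Its log2 fold change of 0.16 (interval -0.03 to 0.35) passed only without WT replicate 1 (0.27, adjusted p = 0.0265). Glce (chromosome 9, 62057249 to 62070606, minus strand), the epimerase gene, had 25.8, 23.2, 18.7 and 16.1 CPM in WT at 8 months, and SgshKO 13.6 to 24.3, with a log2 fold change of -0.17 (interval -0.48 to 0.15). For both genes the groups overlapped at 3 weeks too, with log2 fold changes of -0.04 for Hs2st1 and 0.06 for Glce.

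The libraries with the most neutrophil marker signal were SgshKO replicates 2 (13908 CPM) and 1 (2813) at 4 months and SgshKO replicates 3 (5479) and 1 (2655) at 8 months. At 4 months replicate 2 had the lower level of Ext1, Extl3, Ndst1, Ndst2 and Hs6st1. Left out together, the latter 2 libraries changed no call at 8 months. Log2 fold changes were then -0.49 for Extl3 (adjusted p = 2.89e-06), -0.63 for Ext1 (7.04e-04), 0.43 for Ndst1 (0.00238) and -0.21 for Ndst2 (0.0164). That alternative was chosen after seeing the data. The SgshKO libraries it kept still had 414 to 778 CPM of these markers, against 7.78 to 13.4 in WT. It therefore cannot tell the neutrophil signal from the genotype. On the TPM scale the same 4 members were called at 8 months in the same directions and Hs6st1 was called lower, making 1 higher and 4 lower. Over all genes the split there was 2241 higher and 4120 lower in TPM, against 3090 and 2703 with counts. Relative to the median of all genes in TPM, the values were -0.54 for Extl3, -0.47 for Ext1, 0.40 for Ndst1, -0.23 for Ndst2 and -0.15 for Hs6st1.

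Whether the genotype difference itself changed with age was tested as an interaction. Ndst1 was the 1 member called, between 8 months and 3 weeks (0.54 ± 0.16, SE, adjusted p = 0.0286), where 9.25% of all genes were called. This call was lost in TPM (0.43 to 0.45, adjusted p of 0.0989 to 0.141). Leaving out WT replicate 2 (0.0620) or 3 (0.109) of 3 weeks, SgshKO replicate 1 (0.0700) or 2 (0.0510) of 3 weeks, or WT replicate 3 of 8 months (0.0664) ended it as well. Between 4 months and 3 weeks 0 members were called by edgeR, against 2.52% of all genes; 4 had an unadjusted p under 0.05 and DESeq2 called 0, while leaving out SgshKO replicate 1 of 4 months gave 2 calls. Between 8 and 4 months 0 were called against 0.391%, with 1 at an unadjusted p under 0.05 and 0 by DESeq2. For Extl3 the difference between 8 months and 3 weeks missed the threshold (-0.27, adjusted p = 0.0940). It passed with log2(TPM + 1) (-0.35, adjusted p = 0.0375), with log2(TPM + 0.1) (-0.36, adjusted p = 0.0366) and without WT replicate 3 of 3 weeks (-0.35, adjusted p = 0.0441).

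Age was compared within each genotype between 3 weeks and 8 months. In SgshKO, Ndst1 rose by 0.99 ± 0.10 (SE, adjusted p = 7.79e-08), and all 8-month libraries (104 to 147 CPM) lay above all 3-week libraries (55.9 to 67.8). Ext1 (-0.46, adjusted p = 0.0117), Ndst2 (-0.32, adjusted p = 2.26e-04) and Hs6st1 (-0.37, adjusted p = 0.00145) were lower at 8 months, giving 4 of 9 members beside 30.6% of all genes, 15.5% higher and 15.1% lower. With Ddx3y minus Xist, a term for sex-linked transcripts, as a covariate, the Ext1 call was lost (-0.40, adjusted p = 0.0767). In WT 4 of 9 members were called beside 7.65% of all genes. Extl3 (0.36, adjusted p = 0.00462) and Ndst1 (0.45, adjusted p = 0.0221) were higher (3.02% of all genes were) and Hs2st1 (-0.39, adjusted p = 0.0300) and Hs6st1 (-0.39, adjusted p = 0.0188) lower (4.63%). All 4 calls in WT were lost with the same covariate (adjusted p of 0.0773 to 0.413). The WT count was 2 in a fit of these groups alone and 1 to 4 with 1 library left out. Among these ageing differences, the libraries of the ages did not overlap for 5 members in WT and 3 in SgshKO, against 20.4% and 19.9% of all genes.

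Other genes whose level ran most like that of Extl3 over the 22 libraries were Abhd15 (Pearson r = 0.952 of log2 CPM), Lifr (0.940), Tpst2 (0.937), Sult1a1 (0.936) and Rassf5 (0.936), out of 12716 genes. The libraries share genotype and age, so these values describe a common pattern and carry no p.

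The rest of the pathway was described from gene lists to place the members beside it. Median log2 fold changes at 8 months were -1.14 for other chain enzymes, -0.03 for linker genes, 0.10 for donor supply, 0.72 for core proteins, 0.24 for degradation and -0.03 for the chondroitin branch, beside -0.13 for the members. Among 11 other chain enzymes, 3 had enough counts to be tested, so their median is the value of 1 gene, Hs3st3b1. Of these 3, 2 were lower in SgshKO at 8 months, 1 at 3 weeks and 2 at 4 months. Over all genes 40.5%, 9.03% and 19.5% were called at these ages, in either direction. Hs3st2, a further 3-O-sulfotransferase gene, had 0.485 to 1.27 CPM in WT at 8 months, against 0 to 0.452 in SgshKO (-4.04, adjusted p = 2.72e-04), and 6.65 to 8.77 against 0.585 to 0.951 CPM at 3 weeks (-3.38, adjusted p = 0.00495). The libraries were apart at both ages. With SgshKO counts near 0 at 8 months, the fitted value depends on the prior count and the scale (-6.77 to -0.58 over the alternatives, each of them called). Hs3st3b1, of the same family, was lower at 8 months (-1.14, adjusted p = 0.00275), but WT replicate 4 alone had 43.4 CPM beside a WT median of 12.4, and the call was lost without it (-0.45, adjusted p = 0.104).

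Of 7 genes that build or edit the linker, 3 were higher at 8 months and 0 lower. Over all genes 40.5% were called there, 21.6% higher and 18.9% lower. Xylt1, which starts the linker by adding xylose to the core protein, had 1.06 to 2.81 CPM in WT and 8.13 to 17.6 in SgshKO (2.69, adjusted p = 3.41e-07). The groups did not overlap. Pxylp1, a phosphatase of the linker xylose, had 1 count in the 4 WT libraries and 301 in the 7 SgshKO libraries, 153 times as many for the depth (27.3 to 6073 by counting error alone), and its SgshKO libraries ran from 0 to 5.52 CPM. Its call was lost on the log2(TPM + 1) scale (0.63, adjusted p = 0.141). Fam20b, the xylose kinase gene, had a smaller value (0.24, adjusted p = 0.00770) that was lost in TPM (0.10, adjusted p of 0.269 to 0.329) and with replicate numbers as a block (0.21, adjusted p = 0.0538). At 3 weeks the genotypes overlapped for each of the 7.

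The counts of donor and core protein genes stand beside 40.5% of all genes called at 8 months, 21.6% higher and 18.9% lower. Of 17 genes tested for the supply of sugar nucleotides and sulfate donors, 4 were higher and 1 lower at 8 months. These were Slc35d2, a Golgi sugar nucleotide transporter gene (0.98, adjusted p = 0.00163), Ugp2 (0.50, adjusted p = 4.85e-04), Ugdh (0.46, adjusted p = 0.00426), whose product makes the glucuronic acid donor, and Uap1 (0.38, adjusted p = 8.75e-04). Slc35b2, a transporter of the sulfate donor, was lower (-0.26, adjusted p = 0.0102). The call of Ugdh was lost in TPM with no filter (adjusted p = 0.0587). Core proteins had larger differences, with 6 of 14 tested higher and 2 lower. Sdc3 had 79.3 to 136 CPM in WT and 303 to 493 in SgshKO (1.76, adjusted p = 4.04e-10), and Sdc4 18.1 to 25.8 against 50.6 to 73.0 (1.58, adjusted p = 1.62e-11). Both syndecans were apart between the groups. Nrp1 was higher by 0.79 (adjusted p = 2.50e-05). The glypican genes Gpc4 (0 to 0.354 CPM in WT, 6.16 to 15.9 in SgshKO) and Gpc1 (0 to 0.436 and 0.413 to 11.7) started near 0 and were called higher, by fitted values that depend on the prior count.

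**Figure D4:**
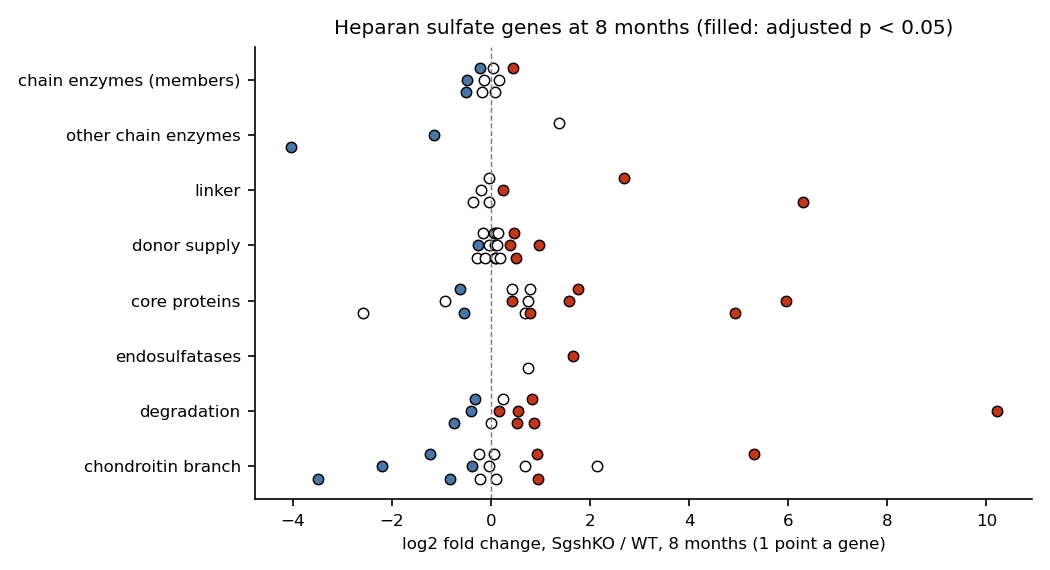
Log2 fold change of SgshKO over WT at 8 months (x axis) for 1 point a gene, by list (y axis), filled where the adjusted p was under 0.05 (blue lower, red higher). The chain enzymes described here lie between -0.51 (Extl3) and 0.44 (Ndst1), while Chst7 stands at -2.19 and Sdc3 at 1.76. Values of genes with WT counts near 0, such as Hpse, Pxylp1, Gpc1, Gpc4 and Chst13, or with SgshKO counts near 0 (Hs3st2, Chpf), depend on the prior count of the fit.

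On the degradation side, 6 of 11 genes tested were higher and 3 lower at 8 months, beside 40.5% of all genes called. At 3 weeks 6 were higher and 0 lower, beside 9.03% of all genes, and edgeR called none of the 9 members. Naglu, an exoglycosidase of heparan sulfate, had 152 to 199 CPM in WT at 8 months, against 292 to 356 in SgshKO (0.83, adjusted p = 8.67e-08). Its groups were apart, as they were at 3 weeks (0.73, adjusted p = 6.22e-05). Arsg (0.87, adjusted p = 9.84e-08), the 3-O-sulfatase gene, and Idua (0.54, adjusted p = 7.06e-07), the iduronidase gene, were higher too. Hpse, the endoglycosidase heparanase, had 0 to 0.277 CPM in WT and 155 to 187 in SgshKO. Sulf2, which removes sulfate from finished chains outside the cell, had up to 18.1 CPM (median 13.3) in WT at 8 months, against 35.6 to 60.9 in SgshKO (1.66, adjusted p = 4.05e-09) and was the 1 of 2 endosulfatase genes called.

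Chondroitin sulfate is made from the same linker by other enzymes, and its list of 15 genes tested had 3 higher and 5 lower at 8 months. Over all genes 21.6% were higher and 18.9% lower there. Chst7, a sulfotransferase gene, fell from 97.7 to 118 CPM in WT to 18.7 to 31.1 in SgshKO (-2.19, adjusted p = 1.33e-13), with no overlap. Chsy1 (-1.22, adjusted p = 3.55e-09) and Chpf (-3.48, adjusted p = 2.14e-05), which extend the chondroitin chain, were lower as well, Chpf from 1.75 to 3.12 CPM to 0 to 0.453. Dse, the epimerase gene of that chain, was higher (0.96, adjusted p = 3.44e-07). Chst13 had 0 counts in the WT group and 47 in the SgshKO group; with 3 counts taken as the floor for the WT group, it was at least 7.98-fold higher, and its call was lost in 11 of 16 alternatives.

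The next comparisons ask whether lowering a transcription factor of this family moves the chain enzymes. Each ASO lowered its target in WT, with log2 fold changes of -4.81 for Mitf, -3.24 for Tfeb and -2.38 for Tfe3. In SgshKO the combination gave -2.26 for Mitf and -1.08 for Tfe3. In WT 0 of 9 members were called by edgeR with the Mitf ASO, beside 11.0% of all genes. With the Tfeb ASO 0 were called beside 0.778%, with the Tfe3 ASO 0 beside 2.16%, and for ntc against PBS 0 beside 0%. At an unadjusted p under 0.05 there was 1 member with each of the 3 ASOs and 0 for ntc against PBS, and DESeq2 called 1, with the Tfe3 ASO. The libraries of 0 members were apart in any of the 4, beside 7.67%, 4.07%, 4.68% and 0.915% of all genes. These comparisons share the 4 ntc libraries.

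Ndst1 was the member with an unadjusted p under 0.05 with the Mitf and the Tfeb ASO. Its libraries ran from 101 to 120 CPM with ntc, from 105 to 156 with the Mitf ASO and from 96.8 to 160 with the Tfeb ASO. All 3 groups overlapped, with log2 fold changes of 0.20 (interval 0.01 to 0.39, adjusted p = 0.174) and 0.23 (0.04 to 0.42, adjusted p = 0.244). Without Mitf ASO replicate 2 the former passed (0.30, adjusted p = 0.0324). Hs6st1 had 192 to 228 CPM with ntc and 176 to 200 with the Tfe3 ASO, overlapping, and missed the threshold (-0.22, interval -0.34 to -0.10, adjusted p = 0.0582). DESeq2 called it (-0.21, adjusted p = 0.0234). For Ext2, with CACGTG before its start, the values were 0.11 with the Mitf, 0.11 with the Tfeb and 0.10 with the Tfe3 ASO, and no interval excluded 0. For Extl2 they were -0.01, 0.03 and -0.01. The intervals of all 9 members with each of these ASOs lay between -0.38 and 0.42.

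**Figure D5:**
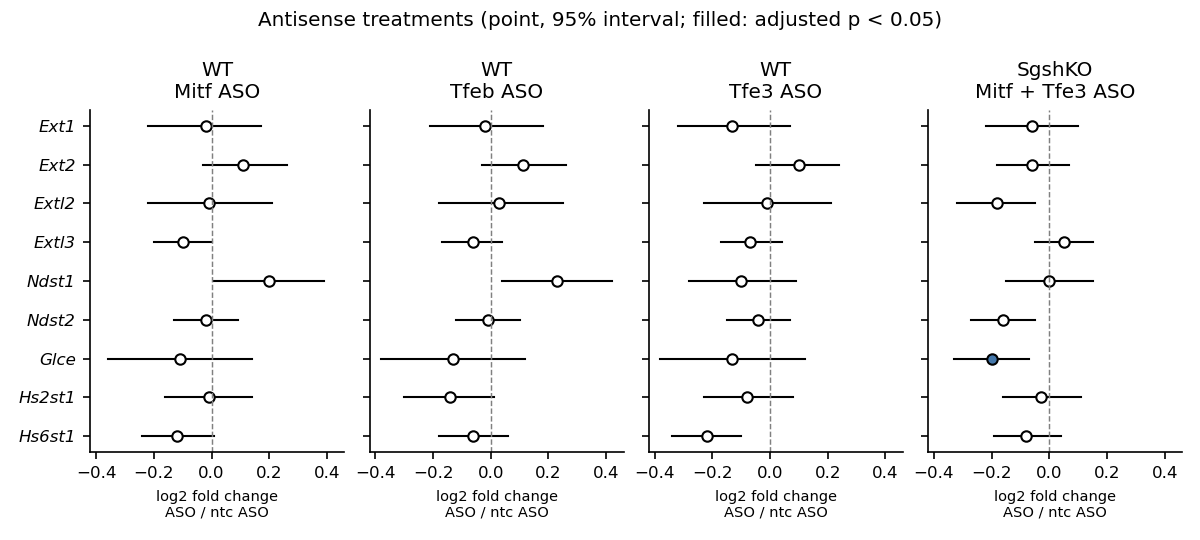
Log2 fold change of ASO over ntc (x axis) for the 9 members tested (y axis) in 4 comparisons, with WT mice in the left panels and SgshKO mice in the right panel. Points are edgeR estimates with 95% intervals, and the filled point passed an adjusted p of 0.05: Glce with the combined ASOs, at -0.20.

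In SgshKO mice treated with the Mitf and Tfe3 ASOs, 1 of 9 members was called, beside 9.33% of all genes, and 0 were apart, beside 1.06%. Glce had 21.1 to 24.9 CPM with ntc (median 23.2, n = 8) and 17.5 to 24.8 with the combination (median 19.9, n = 8). The groups overlapped, and the log2 fold change was -0.20 ± 0.06 (SE, adjusted p = 0.0475). This call was lost in 20 of 25 alternatives, among them DESeq2 (adjusted p = 0.0534), the libraries of grp 1 alone (-0.29, adjusted p = 0.0928) and of grp 2 alone (-0.11, adjusted p = 0.506), where grp is a number in the sample titles. It was lost without any 1 of the 8 grp 1 libraries, ntc replicates 3 or 4 of grp 2 or combination replicates 2, 3 or 4 of grp 2 (adjusted p of 0.0530 to 0.0978). Ndst2 ran from 69.3 to 86.0 CPM with ntc and from 63.6 to 76.2 with the combination (-0.16, interval -0.27 to -0.05, adjusted p = 0.0707). Extl2 ran from 25.2 to 34.7 and from 23.7 to 28.9 CPM (-0.18, interval -0.32 to -0.05, adjusted p = 0.0804). Both overlapped and missed the threshold.

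In the main fit, no member called between the genotypes at any age was called with the combination. Ndst2, whose values are given above, was called lower with a replicate block, as described below. Extl3 had 342 to 396 CPM with ntc and 333 to 434 with the combination (0.05, interval -0.05 to 0.15). Ext1 had a median of 24.2 and 23.7 CPM, with up to 29.4 and 30.3 (-0.06, interval -0.22 to 0.10). Ndst1 had 85.4 to 110 and 82.8 to 118 CPM (0.00, interval -0.15 to 0.15), so that no shift was seen in counts. In the authors' batch-corrected signal Ndst1 was called higher (0.39, adjusted p = 0.0285), and the cause of that gap was not tested. Ext2 (-0.06), Hs2st1 (-0.03) and Hs6st1 (-0.08) also had intervals that held 0.

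Elsewhere in the pathway some genes were called with the Mitf ASO, the Tfe3 ASO and the combination. Over all genes 11.0%, 2.16% and 9.33% were called in these comparisons. With the Tfeb ASO no gene of the pathway lists was called, beside 0.778% of all genes. In WT the Mitf ASO lowered Chst7 (-0.44, adjusted p = 1.59e-04), from 123 to 142 CPM to 88.1 to 106, and had 3 of 12 chondroitin genes called. The others of that branch were Chsy1 (-0.19, adjusted p = 0.0438, lost in 8 of 15 alternatives) and Chst14 (-0.16, adjusted p = 0.0499, lost in 14 of 15). Idua, of the degradation list, was higher (0.29, adjusted p = 0.00429). With the Tfe3 ASO Sulf2 was called (0.50, adjusted p = 0.0195), a call lost in 8 of 15 alternatives. With grp left out of the model, these 5 calls of both ASOs missed the threshold (adjusted p of 0.0626 to 0.681). In SgshKO the combination lowered Hpse from 123 to 170 CPM to 44.9 to 103 (-1.03, adjusted p = 5.59e-05) and Naglu from 300 to 353 CPM to 215 to 272 (-0.42, adjusted p = 1.65e-04). Both were apart from ntc. Of 11 degradation genes 1 was higher and 3 were lower, and of 17 donor genes 0 were higher and 4 lower. Of 10 core protein genes 2 were higher and 1 lower. Over all 10589 genes 512 were higher and 476 lower with the combination. Slc35d2 (-0.53, adjusted p = 0.0163), Slc26a2 (-0.26, adjusted p = 0.00632) and Slc35a3 (-0.23, adjusted p = 0.0276) supplied donors or sulfate. In the batch-corrected signal Slc35d2 (-0.13, adjusted p = 0.774) and Chpf2 of the chondroitin branch (-0.21, adjusted p = 0.252) were not called. Among core proteins Sdc4 fell (-0.46, adjusted p = 4.42e-04) while Sdc3 (0.43, adjusted p = 0.0121) and Srgn (0.23, adjusted p = 0.00121) rose, and in counts Chpf2 fell (-0.27, adjusted p = 0.0101). Within grp 1 or grp 2 alone, Hpse, Naglu, Slc26a2, Slc35d2, Slc35a3, Sdc3, Srgn and Chpf2 each lost the call in at least 1 of them.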

How the data were processed

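PolyA RNA-seq counts were read from the authors' deposited tables of raw counts, 1 for the age series and 1 for each ASO set. The authors also deposited TPM for the age series and a batch-corrected signal for the ASO sets, whose method is not stated, and both served as alternatives. The submitters' processing notes list STAR 2.5.3a, kallisto 0.44.0, HOMER 4.11, DESeq2 1.36.0 and R 4.2.3 and no role for each. Counts were tested with edgeR 4.0.16 in R 4.3.3 (quasi-likelihood F test after TMM scaling, on genes kept by filterByExpr at its default of 10 counts), with Benjamini-Hochberg adjustment over all genes tested and a threshold of 0.05. Each of the 6 combinations of genotype and age was a group of 1 model, and the ASO models added grp. Other tools were DESeq2 1.42.0 and limma 3.58.1 on log2(TPM + 1), log2(TPM + 0.1) and log2 signal. Only the edgeR fit was tried on simulated data, for plain group comparisons and with no grp effect. CPM are counts scaled by library total and TMM factor. An SE is the absolute log2 fold change divided by the square root of F.

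The 10 members are named throughout. Of 7 pathway lists, genes called at 8 months are named, up to 5 a list by absolute change, with up to 3 a list for each ASO comparison, and the 5 genes most like the member with the lowest adjusted p. Members and lists were chosen with earlier results of these data known. In the WT ASO set grp is the replicate number and holds 1 library of each treatment, so it was in the model; same-numbered libraries deviated together with r of 0.0286 to 0.695 over 40 pairs. The title of PBS replicate 4 says grp 4 while its column says grp 3, and the title was followed. Not every called gene of the degradation list is reported here. The labels do not say which RNA kit or sequencer each library had, so these could not be entered.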

Additional observations from a re-analysis of the deposited data

Results flagged for a closer look

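Of 90 groups of libraries examined for a member, 7 had a library far from the others, where chance flags about 1 in 20 groups. In the age series, Ndst2 in SgshKO 8-month replicate 2 was 122.0 CPM beside 109 to 112 in the other 6, and it is the library that reached the WT range. In the WT ASO libraries, Ndst1 was 87.2 CPM in Tfe3 ASO replicate 1 beside 112 to 115, and Hs6st1 was 200.0 CPM in Tfe3 ASO replicate 4 beside 176 to 178. Glce was 26.0 CPM in Tfeb ASO replicate 1 beside 20.1 to 21.1. Hs2st1 was 64.2 CPM in Mitf ASO replicate 3 beside 73.2 to 74.6. In the SgshKO ASO libraries, Ext2 was 76.2 CPM in the combination, grp 1 replicate 2, beside 95.9 to 110, and Hs6st1 was 167.0 CPM in ntc, grp 2 replicate 1, beside 121 to 141. The difference in genotype effect between 8 months and 3 weeks passed its test for Ndst1 at 0.54 (log2).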

How the results depend on the processing

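No called log2 fold change reversed, while some that were not called changed sign, such as Ext2 and Extl2 at 8 months in TPM (-0.06 and -0.09). Of 250 counts of members called under the alternatives, 207 stayed within 1.5 times, and of 349 values of called members 293 kept direction and call. The calls of Ext1, Extl3, Ndst1 and Ndst2 at 8 months held in each alternative run, as did Extl3 and Hs6st1 at 4 months. At 3 weeks the count went from 0 to 1 with RLE factors, DESeq2, a stricter filter (minimum count of 50) and the 3 TPM settings, each time Extl3. For the 4-month minus 3-week difference it went from 0 to 2 in a fit of those groups alone and to 1 with log2(TPM + 1), and for 8 months minus 3 weeks from 1 to 0 with TPM and no filter, and with the filter the 1 member called in TPM was Extl3 and not Ndst1. For WT ageing it went from 4 to 2 in a fit of those groups alone and to 0 with the Ddx3y minus Xist covariate. For the Tfe3 ASO DESeq2 called 1. For the combination the count went from 1 to 0 with RLE factors, DESeq2, grp left out, or grp 1 or 2 alone. With 1 library left out, counts ran from 0 to 1 at 3 weeks, 2 to 4 at 4 months (2 without WT replicate 2 or SgshKO replicate 2), 4 to 5 at 8 months, 0 to 2 and 0 to 1 for the differences of 4 and 8 months from 3 weeks, 1 to 4 for WT ageing, 4 to 6 for SgshKO ageing, 0 to 1 for the Mitf ASO and 0 to 2 for the combination, and stayed at 0 for the other comparisons. Same-numbered libraries did not deviate together in the age series (r of -0.173 to 0.143 over 9 pairs). In the SgshKO ASO set r ran from 0.0352 to 0.624 over 8 pairs, much like the WT ASO set (0.0286 to 0.695). The main model of the SgshKO ASO set held grp but no replicate block. With a replicate block the combination called 1 member as well, Ndst2 (-0.16, adjusted p = 0.0343) in place of Glce (-0.20, adjusted p = 0.0960), and Hs2st1 in WT ageing missed the threshold (-0.38, adjusted p = 0.0683); no other call of a member changed with the block. Of pathway genes, the block ended the calls of Fam20b and Chst13 (5.97, adjusted p = 0.0519) at 8 months and of Xylt1 at 4 months (1.40, adjusted p = 0.0513), and Hs3st3b1 passed at 3 weeks (-1.33, adjusted p = 0.0124). In the age series a library had 140 to 852 counts for Ext1 and 152 to 604 for Extl2. Glce had 151 to 598 and Hs3st1 0 to 13. Such counts limit what can be seen for these members, as do 2 libraries a group at 4 months.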
